A study of Mus musculus with 26 samples.

Results

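The mir-34 family was followed in the small RNA of the mouse dorsal (dHC) and ventral (vHC) hippocampus. Its members were the 3 entries mmu-mir-34a, mmu-mir-34b and mmu-mir-34c (here mir-34a, mir-34b and mir-34c), taken by their miRBase names from 1054 miRNA entries in a table of 1360 annotated small RNAs. A total of 26 libraries were analysed. They came from male C57BL/6J mice of 2 to 3 months, and each library held tissue of one region from both hemispheres. Control mice stayed in the home cage and gave 8 vHC and 6 dHC libraries. Acutely stressed mice swam for 6 min in water of 18 °C, were collected 45 min after the onset of stress, and gave 6 vHC and 6 dHC libraries. No genetic change or drug was involved, all mice were of one inbred strain and one sex, and whole tissue was used, so that cell types were not separated. Libraries were processed in 3 blocks that each held all 4 groups, with 10, 8 and 8 libraries.

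The miR-34 genes are direct transcriptional targets of the tumour suppressor p53, and their mature miRNAs repress mRNAs that drive the cell cycle and block apoptosis. Mir34a is transcribed alone, whereas Mir34b and Mir34c lie next to each other and are made from a shared primary transcript. In the body, miR-34b and miR-34c are best known from the testis and from multiciliated cells of the airway, oviduct and choroid plexus, where they act together with the miR-449 genes that carry the same seed. In the brain, members of the family have been studied for their response to stress and for a part in anxiety and memory, which is the question behind following them after a swim.

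The mature sequences show what the members share, and they are printed with the seed, bases 2 to 8 counted from the 5′ end, in capitals. RefSeq sequences on GRCm38.p6 were matched for 5 of the 6 genes looked up; miR-34c-5p and mir-449b are only named.
mmu-miR-34a-5p: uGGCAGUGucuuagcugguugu
mmu-miR-34b-5p: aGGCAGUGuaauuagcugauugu
mmu-miR-449a-5p: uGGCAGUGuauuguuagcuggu
mmu-miR-449c-5p: aGGCAGUGcauugcuagcugg
mmu-miR-34b-3p: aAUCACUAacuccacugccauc
mmu-miR-34c-3p: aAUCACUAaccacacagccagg
mmu-miR-34a-3p: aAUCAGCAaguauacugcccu
The 5p seed GGCAGUG was found in 4 of 1679 mature miRNAs of the table (0.238%), and these are the 4 printed first. The 3p seed AUCACUA was found in 2 of them, miR-34b-3p and miR-34c-3p, which were identical at 17 of 22 aligned positions. The 3p seed of miR-34a differs from it.

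The hairpins of mir-34b and mir-34c are shown because the counts below were given per precursor, and because the counts of these neighbours carried equal fractions, described below. The letters GGCAGUG, searched on the hairpin strand only, are in capitals.
Mir34b hairpin: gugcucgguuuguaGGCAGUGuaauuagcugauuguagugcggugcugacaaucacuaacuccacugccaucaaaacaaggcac
Mir34c hairpin: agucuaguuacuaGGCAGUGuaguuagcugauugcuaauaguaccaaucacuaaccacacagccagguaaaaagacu
The letters occurred in 17 of 1005 hairpins (1.69%). The hairpins of Mir34b and Mir34c were identical in 61 of 87 aligned columns (70.1%), against 56.0% for Mir34a and Mir34b and 53.8% for Mir34a and Mir34c. The longest unbroken run shared by Mir34b and Mir34c was 11 bases, below the minimum read length of 18 that the study set. A read of that length could match both hairpins only with a mismatch.

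On GRCm38 (GENCODE vM21), Mir34a lies on the plus strand at chr4:150068454-150068555, within an exon of Gm37795, a gene model that still awaits experimental proof. Mir34b (chr9:51103562-51103645) and Mir34c (chr9:51103034-51103110) lie on the minus strand with 451 bases between them, in an intron of Btg4 on the opposite strand. Mir449a, Mir449b and Mir449c lie on chromosome 13 in an intron of Cdc20b, on its strand.

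The deposited values are expected counts per entry, not normalized, after reads with identical sequence and molecular tag had been collapsed. They were divided by the total of miRNA counts in the library and scaled by the TMM method, which gives normalized CPM, counts scaled to a common total. The libraries held 465387 to 4819724 miRNA counts, the lowest being control dHC library 24. The tissue carried the neuronal miRNAs: the summed level of 8 mir-124, mir-128 and mir-9 entries was between 156385 and 328933 normalized CPM. Each of the 3 mir-34 entries was counted in 26 of 26 libraries and passed edgeR's filter on low counts, together with 460 others. Their lowest counts, 148 for mir-34a, 87.3 for mir-34b and 296 for mir-34c, all came from library 24.

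Counts of mir-34a were whole in 26 of 26 libraries, and those of mir-34b and mir-34c were not whole in 17. In 26 of 26 libraries mir-34b and mir-34c had the same fraction after the decimal point, at most 0.83. A fraction is what a count divided among several entries leaves. In 9 libraries mir-449b had a count of 0.33, and in these same libraries the fraction of mir-34b and mir-34c was 0.33 or 0.83. How much of the counts was divided among these entries cannot be read from the table, and the level of mir-34b or mir-34c alone is to that extent uncertain. The 5p and 3p strands of a precursor cannot be told apart either.

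All members were moderately abundant. By mean normalized CPM, mir-34c ranked 158 of 1054 with 599, mir-34a 186 with 334 and mir-34b 206 with 227. Together they made up 0.0528% to 0.206% of all miRNA counts (median library 0.114%). Within the family, mir-34c held a median of 51.1% of the counts, mir-34a 28.7% and mir-34b 18.7%, and this make-up varied widely, with mir-34c between 18.7% and 65.0%. The seed relatives were scarce. The count of mir-449a was between 3 and 55, that of mir-449c was at most 1 and that of mir-449b at most 0.33, and the latter pair did not pass the filter.

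mir-34a, the member best known as a p53 target, was at 194 normalized CPM in the lowest, 293 in the median and 562 in the highest of the 8 control vHC libraries. In swim vHC the values were 234, 267 and 405. In control dHC they were 293, 365 and 424, and in swim dHC 273, 330 and 442. The 4 groups overlapped broadly, and the highest value of all belonged to control vHC library 1.

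mir-34b was at 146, 186 and 242 normalized CPM in control vHC (lowest, median and highest). In swim vHC it was at 140, 185 and 210. In control dHC the values were 225, 299 and 388, and in swim dHC 165, 275 and 300. Both dHC groups thus lay mostly above both vHC groups, with single libraries crossing over.

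mir-34c, the most abundant member, was at 178, 320 and 665 normalized CPM in control vHC. In swim vHC it was at 173, 564 and 793. In control dHC the values were 643, 802 and 872, and in swim dHC 485, 723 and 1194. By medians the order was control dHC, swim dHC, swim vHC and control vHC, and neighbours in this order did not pass the tests of the fits described first below. For swim dHC against swim vHC the adjusted p by edgeR was 0.0526, and this pair fell on either side of the threshold under other settings. In vHC the highest library was well over the lowest, whereas the control dHC libraries lay close together.

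**Figure D1:**
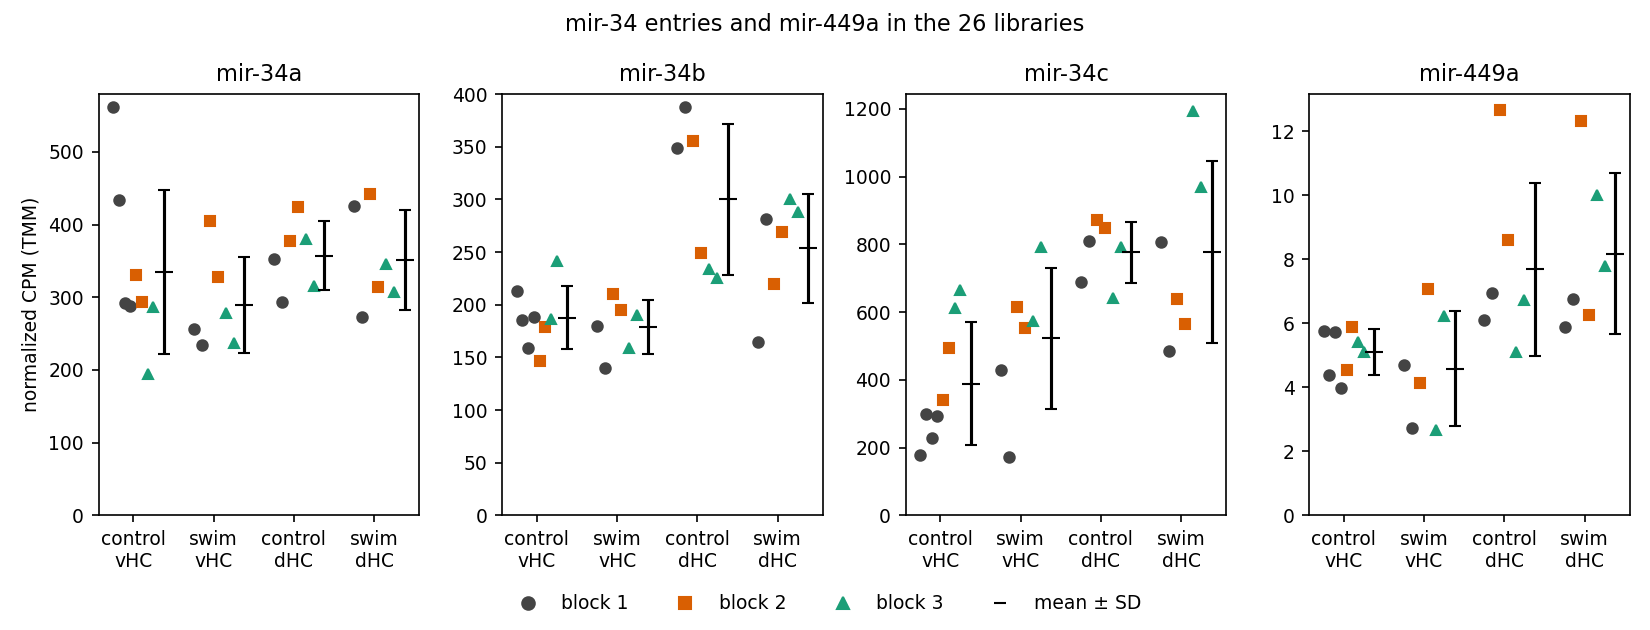
Normalized CPM (vertical axes, from 0) of mir-34a, mir-34b, mir-34c and mir-449a in each of the 26 libraries, by group; point shape and colour give the block and bars the mean ± SD. The mir-34b and mir-34c values of dHC lie mostly above those of vHC, whereas those of mir-34a overlap, and the vHC values of mir-34c are lowest in block 1.

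The stress comparison asks whether a swim changed these miRNAs by 45 min. No mir-34 entry passed the test. The model contained stress, region, the interaction of both and 2 surrogate variables (SVs, estimates of unwanted variation), after the methods of the study. By edgeR's quasi-likelihood method (Benjamini-Hochberg adjustment), 0 of the 3 members passed an adjusted p of 0.05 for stress and interaction dropped together, beside 0 of all 463 entries (0%). An unadjusted p under 0.05 was reached by 16 entries, none of them a member, and DESeq2 also called 0, with 16 below that unadjusted p. The adjusted p by edgeR was 0.862 for mir-34a and 0.793 for mir-34b and for mir-34c.

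In vHC, mean mir-34a was 290 ± 65.9 normalized CPM after swim (SD, n = 6) and 335 ± 113 in controls (n = 8). The fitted log2 fold change was -0.22 ± 0.18 (SE; adjusted p = 0.696 by edgeR), with a 95% confidence interval from -0.58 to 0.15, and -0.06 without control vHC library 1, the highest of all. For mir-34b the log2 fold change was -0.11 ± 0.14 (adjusted p = 0.755 by edgeR; interval from -0.39 to 0.17). For mir-34c it was 0.28 ± 0.18 (adjusted p = 0.667 by edgeR; interval from -0.09 to 0.65), from 389 ± 180 normalized CPM in controls and 523 ± 208 after swim. On the linear scale these intervals span 0.667 to 1.11-fold, 0.761 to 1.12-fold and 0.937 to 1.57-fold. A rise of mir-34a or mir-34b beyond 1.12-fold lay outside them, but they hold for this fit only. Over the other settings, single blocks among them, the log2 fold change was -0.63 to 0.22 for mir-34a and -0.29 to 0.32 for mir-34b. Over all entries 0 of 463 were called in vHC (0%), and an unadjusted p under 0.05 was reached by 34 in edgeR and 39 in DESeq2.

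In dHC, mean mir-34a was 351 ± 68.2 normalized CPM after swim and 357 ± 47.6 in controls (SD, n = 6 each), a fitted log2 fold change of -0.02 ± 0.19 (adjusted p = 0.999 by edgeR). The log2 fold change was -0.24 ± 0.14 for mir-34b (adjusted p = 0.982 by edgeR; interval from -0.54 to 0.06). It was -0.19 ± 0.19 for mir-34c (adjusted p = 0.982 by edgeR; interval from -0.59 to 0.20), although the mean of mir-34c was 776 normalized CPM in both groups. Without SVs the value for mir-34c was 0.0022. In dHC 0 of 463 entries were called (0%), and 17 in edgeR and 18 in DESeq2 had an unadjusted p under 0.05.

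The stress difference was also compared between regions, as dHC minus vHC. It was 0.19 ± 0.26 for mir-34a and -0.13 ± 0.20 for mir-34b on the log2 scale. For mir-34c it was -0.47 ± 0.26, with an unadjusted p of 0.0853 and an adjusted p of 0.954 by edgeR. No entry of 463 was called (0%), and 23 in edgeR and 20 in DESeq2 had an unadjusted p under 0.05. The share of miRNA counts held by the 3 entries together was 0.0998% ± 0.0288 after swim and 0.0904% ± 0.0162 in controls of vHC. In dHC it was 0.143% ± 0.0387 after swim and 0.143% ± 0.0243 in controls. Neither difference passed a two-sided exact permutation test (adjusted p = 0.597 and 0.974 over 4 tests of the share).

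**Figure D2:**
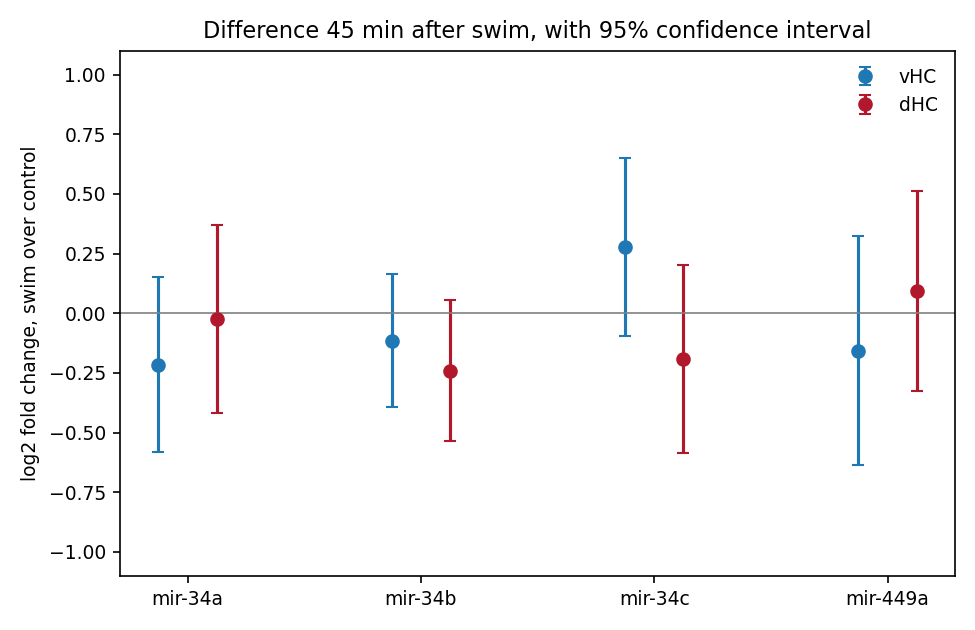
Fitted log2 fold change of swim over control (vertical axis) for the 3 mir-34 entries and mir-449a in vHC (blue) and dHC (red); bars are 95% confidence intervals from edgeR's fit of 26 libraries. All 8 intervals include 0, and the largest estimate among the members is 0.28 for mir-34c in vHC.

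Other miRNAs that p53 is known to induce or whose processing it promotes (among them mir-192, mir-194, mir-215, mir-107, mir-143, mir-145a, mir-15a and mir-16) were at hand as 12 of the 13 entries listed, and all 12 were tested. After swim 0 of the 12 were called in vHC or in dHC. Their median log2 fold change was 0.13 in vHC, where that of all 463 entries was -0.03, and 0.00 in dHC, where that of all entries was 0.02. Of the seed family, 4 of 6 entries were tested and 0 called. mir-449a had log2 fold changes of -0.16 ± 0.23 in vHC (adjusted p = 0.816 by edgeR) and 0.09 ± 0.20 in dHC (adjusted p = 0.999 by edgeR).

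The region comparison asks how dHC and vHC differ. In control mice mir-34b and mir-34c were higher in dHC, and mir-34a was not called. Mean mir-34c was 776 ± 90.8 normalized CPM in control dHC (SD, n = 6) and 389 ± 180 in control vHC (n = 8). With block in the fit in place of the SVs, the log2 difference, dHC minus vHC, was 1.03 ± 0.21 (SE; adjusted p = 0.000432 by edgeR), which is 2.04-fold with an interval from 1.51 to 2.74. The values of the groups overlapped by 1 library each, since the lowest control dHC library was at 643 and the highest control vHC library at 665; groups without overlap were found for 6.7% of all entries, 1.08% with dHC higher. Mean mir-34b was 300 ± 71.8 in control dHC and 188 ± 29.9 in control vHC, a log2 difference of 0.69 ± 0.15 (adjusted p = 0.00110 by edgeR) or 1.61-fold (interval from 1.29 to 2.00). For mir-34a the log2 difference was 0.11 ± 0.17 (adjusted p = 0.662 by edgeR; interval from -0.24 to 0.45).

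These 2 of 3 members stood among 104 of 463 entries called in this comparison (22.5%), of which 36 were higher in dHC (7.78%) and 68 lower. With DESeq2 size factors in edgeR the split was 66 higher and 64 lower, and mir-34b and mir-34c were higher there too. By p, mir-34c ranked 34 and mir-34b 47 of 463. In bulk tissue, a larger number of cells that hold a miRNA and more of the miRNA per cell cannot be told apart.

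The difference was uneven over the blocks. Within block 1 the mean log2 difference in control mice was 1.61 for mir-34c and 0.99 for mir-34b. Within block 2 it was 1.07 and 0.88. Within block 3 it was 0.16 and 0.11, with 2 libraries a group, and whether blocks differ in this was not tested. For mir-34a the values were -0.24, 0.36 and 0.55. Leaving out any library in turn kept mir-34b between 0.61 and 0.80 and mir-34c between 0.91 and 1.19, and both remained called in 26 of 26 fits.

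After swim the same comparison gave mir-34b as 254 ± 51.7 normalized CPM in dHC and 179 ± 25.6 in vHC (SD, n = 6 each), a log2 difference of 0.50 ± 0.16 (adjusted p = 0.0286 by edgeR). mir-34b was called beside 94 of 463 entries (20.3%), of which 35 were higher in dHC (7.56%). The call was lost without any one of swim vHC library 15 or 27, or swim dHC library 16, 22, 28 or 30, where the adjusted p by edgeR was at most 0.0874. For mir-34c the log2 difference was 0.61 ± 0.22 (adjusted p = 0.0526 by edgeR), from 776 ± 269 normalized CPM in dHC and 523 ± 208 in vHC. It was past the threshold with each other normalization, with DESeq2 (adjusted p = 0.0189) and without the filter, but not without block (adjusted p = 0.261 by edgeR). mir-34a had 0.29 ± 0.18 (adjusted p = 0.282 by edgeR). Within blocks 1, 2 and 3 the log2 difference was 0.44, 0.26 and 0.76 for mir-34b and 1.20, 0.04 and 0.67 for mir-34c. The groups overlapped for all 3 members, as they did for all but 5.83% of the entries (1.08% without overlap and higher in dHC).

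One choice of covariates turned the direction. With the 2 SVs of the stress fit, estimated against a null model of region, the control difference was -0.22 ± 0.40 for mir-34b (adjusted p = 0.777 by edgeR) and -1.66 ± 0.53 for mir-34c (adjusted p = 0.0343 by edgeR). After swim that fit gave -0.35 ± 0.40 and -2.13 ± 0.53 (adjusted p = 0.613 and 0.00941 by edgeR). In control mice the median log2 difference over all 463 entries was -0.22 in that fit, against 0.01 with block. The median SE over all entries was 0.44, against 0.16 with block. Earlier results of these data had shown that a surrogate variable follows region, which is why block was used for the region comparison. Without SVs or block, and with 2 SVs estimated against an intercept alone, which was added after the data were seen, the estimates for mir-34b and mir-34c were above 0 in both comparisons. For mir-34c after swim they did not pass there (adjusted p = 0.261 and 0.101 by edgeR). The means of normalized CPM, which no covariate touches, were higher in dHC for both.

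**Figure D3:**
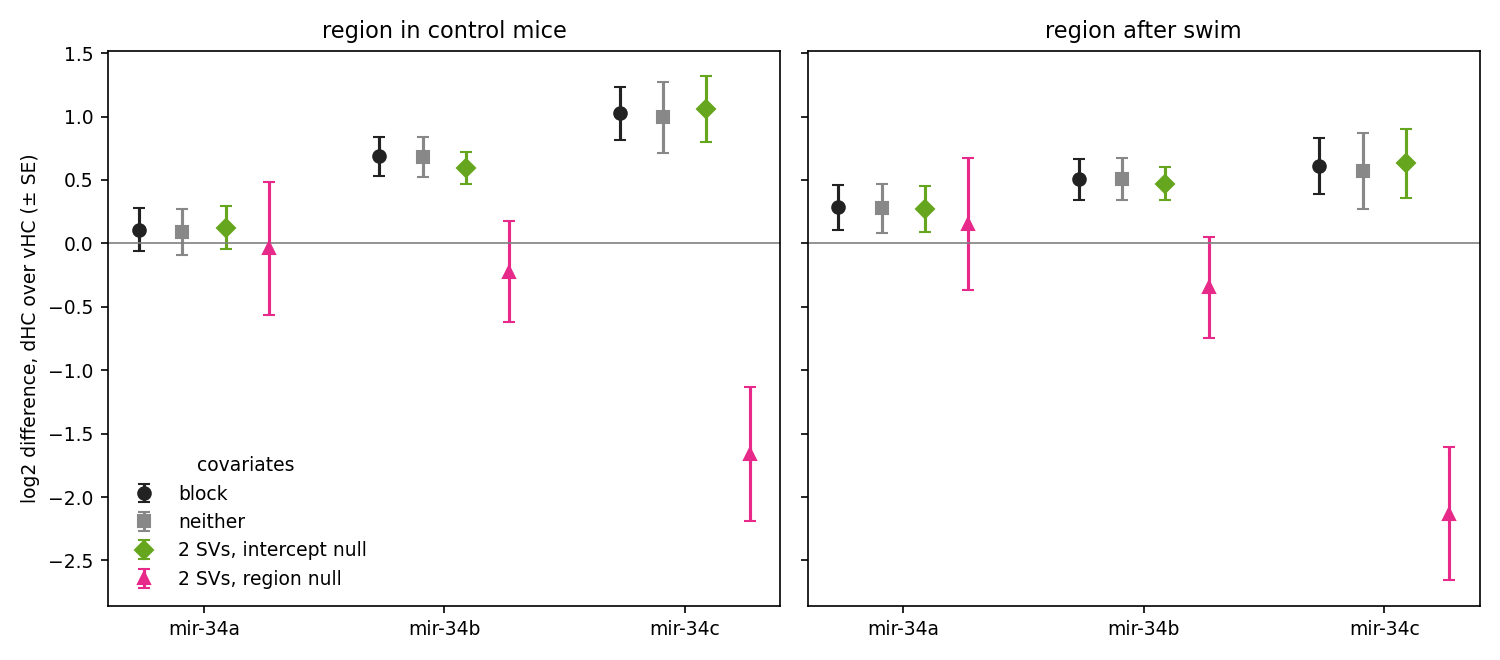
Log2 difference of dHC over vHC (vertical axis; bars are SE) for the 3 mir-34 entries in control mice (left) and after swim (right), under 4 choices of covariates shown by colour and shape. With block, with neither and with SVs from an intercept null, mir-34b and mir-34c lie above 0, whereas with SVs from a region null they lie below 0, mir-34c at -1.66 and -2.13.

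The summed share followed mir-34b and mir-34c. In control mice the 3 entries held 0.143% ± 0.0243 of the miRNA counts of dHC (n = 6) and 0.0904% ± 0.0162 of vHC (n = 8; two-sided exact permutation test, adjusted p = 0.00400). After swim the shares were 0.143% ± 0.0387 and 0.0998% ± 0.0288 (adjusted p = 0.108 by the same exact test). These exact tests took no account of block. Block 1, where mir-34c was lowest, held 4 of the 8 control vHC and 2 of the 6 control dHC libraries. Over the other settings, single blocks among them, the control difference of the share was 0.0233 to 0.0708 percentage points. The ratio to mir-34a does not depend on library size. The log2 ratio of mir-34c to mir-34a was 1.12 ± 0.26 in control dHC and 0.14 ± 1.05 in control vHC, and that of mir-34b to mir-34a was -0.27 ± 0.45 and -0.79 ± 0.48. Neither ratio passed the exact permutation test after adjustment over 4 tests, with an adjusted p of 0.132 for both, and within block 3 both differences had the opposite sign (-0.39 and -0.45).

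mir-449a, the only tested seed relative, was also higher in dHC. It was at 5.09, 6.85 and 12.7 normalized CPM in control dHC (lowest, median and highest) and at 3.99, 5.27 and 5.88 in control vHC. The log2 difference was 0.57 ± 0.21 in control mice (adjusted p = 0.0444 by edgeR) and 0.89 ± 0.22 after swim (adjusted p = 0.00342 by edgeR). These values of mir-449a rest on counts of 3 to 55, and its control groups overlapped. With it, the seed family had 3 of 4 tested entries higher in dHC in control mice and 2 of 4 after swim, beside 7.78% and 7.56% of all entries. These counts include mir-34b and, in control mice, mir-34c, already given above, and mir-449a is the only entry they add. The counts of mir-34b and mir-34c carried equal fractions, so that they are not independent of each other. With the members included, the median log2 differences of the family were 0.63 and 0.56, where those of all entries were 0.01 and -0.00.

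The other p53-linked miRNAs did not share a direction between regions. In control mice 3 of 12 were higher in dHC, namely mir-15a and the copies mir-16-1 and mir-16-2, and 2 were lower, mir-200c and mir-141. Over all 463 entries 7.78% were called higher in this comparison and 14.7% lower. After swim there were again 3 higher and 2 lower, the same entries, beside 7.56% and 12.7% of all entries. For mir-16-1 the log2 difference in control mice was 0.66 ± 0.10 (adjusted p = 2.06e-05 by edgeR). For mir-200c it was -1.19 ± 0.17 (adjusted p = 5.23e-06 by edgeR).

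Some markers of other cell types moved with region as well. For comparison, 7.78% of all 463 entries were called higher in control dHC and 14.7% lower, and after swim 7.56% and 12.7%. Of 8 tested miRNAs of ciliated and choroid plexus epithelium, 3 were higher in control dHC (mir-204, mir-211 and mir-449a) and 5 lower (mir-141, mir-200a, mir-200b, mir-200c and mir-429), and after swim 1 was higher and 5 lower. Their summed level was between 2243 and 2955 normalized CPM in control vHC and between 2414 and 2903 in swim vHC. It was between 2301 and 5226 in control dHC and between 1737 and 3801 in swim dHC, and the markers at or near 0 were mir-449b and mir-449c, with counts of at most 0.33 and 1. Of 3 oligodendrocyte entries (the copies mir-219a-1 and mir-219a-2, and mir-338), 3 were higher in dHC in control mice and after swim. Copies of a miRNA are not separate markers. Their sum was between 3321 and 4939 in control vHC, 3638 and 4714 in swim vHC, 4329 and 7617 in control dHC, and 4578 and 6941 in swim dHC. Of 8 neuronal entries, all copies of mir-124, mir-128 or mir-9, 0 were called in either region comparison. Of 4 blood entries, 2 were lower in control dHC and 1 after swim, and the single tested entries of microglia (mir-142) and endothelium (mir-126a) were not called. The part of any of these cells in the mir-34 difference was not tested.

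Processing block separated mir-34c from its neighbour. In the fit with block, mir-34c differed among blocks (adjusted p = 0.00111 by edgeR), mir-34b did not pass (adjusted p = 0.987) and nor did mir-34a (adjusted p = 0.173), beside 246 of 463 entries called (53.1%). mir-34c was at 173, 364 and 810 normalized CPM in block 1 (lowest, median and highest). In block 2 it was at 340, 590 and 872, and in block 3 at 574, 729 and 1194. The log2 difference was 0.86 ± 0.18 for block 3 against 1 (adjusted p = 0.000344 by edgeR; 52.1% of entries called). For block 2 against 1 it was 0.48 ± 0.18 (adjusted p = 0.0289 by edgeR; 52.5% called), a call lost without swim vHC library 15 or control dHC library 18 (adjusted p = 0.0629 and 0.0510). For block 3 against 2 it was 0.37 ± 0.19 (adjusted p = 0.465 by edgeR). The same differences for mir-34b were 0.02, -0.00 and 0.02.

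The lower levels of block 1 were mostly those of vHC. There, mir-34c was between 173 and 429 normalized CPM in the 6 libraries of block 1 and between 574 and 793 in the 4 of block 3. In dHC the ranges were 485 to 810 and 643 to 1194, with 4 libraries each.

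Counts of mir-34c per count of mir-34b show the same without any scaling. Their medians were 1.67, 2.80 and 3.44 for blocks 1, 2 and 3, and over all libraries they lay between 0.835 and 4.89, both in block 1 (control vHC library 1 and swim dHC library 6). In control vHC library 1 alone, mir-34c was counted less often than mir-34b. The log2 ratio of mir-34b to mir-34c was -0.83 ± 0.67 (SD, n = 10), -1.43 ± 0.22 (n = 8) and -1.76 ± 0.22 (n = 8) in this order. By two-sided exact permutation tests, with adjustment over the 3 pairs, the adjusted p was 0.0260 for block 2 against 1, 0.00631 for block 3 against 1 and 0.0154 for block 3 against 2. Of 4 comparisons of this ratio by region or stress, 0 passed (adjusted p between 0.352 and 0.688 by the same exact test). Those tests had 6 or 8 libraries a group and took no account of block. They therefore do not show that region or stress leaves the ratio unchanged. All blocks held all 4 groups, but block 1 held 4 of the 8 control vHC libraries.

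**Figure D4:**
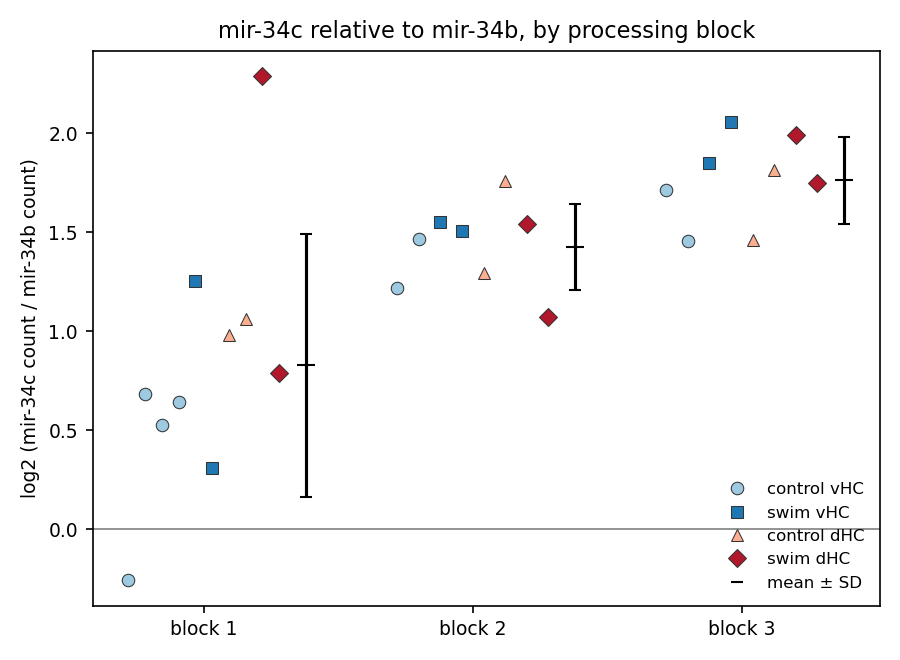
Log2 of the mir-34c count over the mir-34b count (vertical axis) in the 26 libraries by processing block, with the group by colour and shape and bars for the mean ± SD. The mean ratio is lowest in block 1 and highest in block 3; block 1 has the widest spread and holds both the lowest single library, a control vHC one below 0, and the highest, a swim dHC one.

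The neighbours mir-34b and mir-34c went together over the 26 libraries. For log2 normalized CPM, Pearson's r was 0.60 (permutation test, adjusted p = 0.00459 over 3 pairs) and Spearman's rho 0.66 (adjusted p = 0.00135). Without the 2 libraries farthest from the median r was 0.57. These libraries differ in region, and within vHC r was 0.41 (n = 14) and within dHC 0.15 (n = 12), neither past the threshold (adjusted permutation p = 0.231 and 0.645). Within blocks 1, 2 and 3, each with both regions pooled, it was 0.62, 0.86 and 0.80, and after block and group means were removed 0.39. The equal fractions noted above were in these same counts, and their part in r was not tested. mir-34a had an r of 0.20 to mir-34b and 0.00 to mir-34c (adjusted permutation p = 0.494 and 0.9996).

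Each member was closest in pattern to different miRNAs. Among 394 miRNAs, 1 entry each, mir-34b was most like mir-211 (r = 0.85), mir-204 (0.80) and mir-106b (0.76) over the 26 libraries, and mir-449a came sixth of all (0.64). After block and group means were removed, r to mir-34b was 0.81 for mir-211, 0.77 for mir-204 and 0.42 for mir-106b. mir-204 and mir-211 are abundant in choroid plexus and share a seed with each other. Within dHC r was 0.83 for mir-211 and 0.84 for mir-204, and within vHC 0.56 and 0.52. Both were higher in control dHC, by 0.56 ± 0.16 for mir-211 (adjusted p = 0.0108 by edgeR) and 0.55 ± 0.19 for mir-204 (adjusted p = 0.0335 by edgeR) on the log2 scale. After swim neither passed, with 0.43 ± 0.17 for mir-211 and 0.38 ± 0.20 for mir-204 (adjusted p = 0.0822 and 0.202 by edgeR). Over all 463 entries 7.78% were called higher in control dHC. Because mir-211 and mir-204 were picked by r to mir-34b in these same libraries, regions included, their shared direction is no separate support. Of the same epithelial marker list, 5 entries were lower in control dHC (mir-141, mir-200a, mir-200b, mir-200c and mir-429).

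mir-34c was most like mir-338 (r = 0.78), mir-192 (0.76) and mir-3068 (0.75). mir-338 is known from oligodendrocytes, and mir-192 is another miRNA linked to p53. With block and group means removed, r fell to 0.25, 0.56 and 0.35. mir-34a was most like mir-133a-2 (0.76), mir-935 (0.68) and mir-8114 (0.64), and these were 0.69, 0.58 and 0.50 after the same step. mir-133a is best known from muscle, and its entry mir-133a-2 was at 21.2 to 56.0 normalized CPM here. The 26 points of each correlation share library depth and block with each other, and the values are descriptions only.

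**Figure D5:**
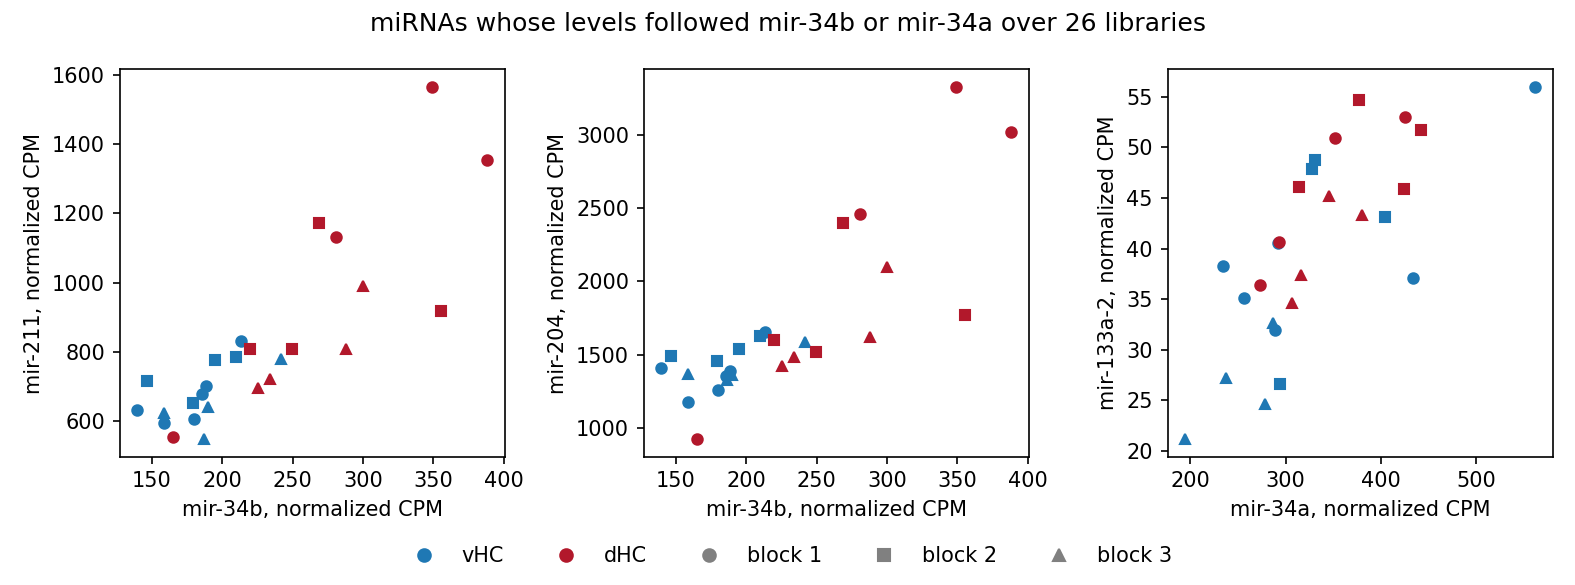
Normalized CPM of mir-211 and mir-204 against mir-34b, and of mir-133a-2 against mir-34a, with 1 point for each of the 26 libraries, coloured by region and shaped by block. The pairs with mir-34b have r of 0.85 and 0.80 on the log2 scale, and the highest values of all 3 miRNAs are in dHC; the pair with mir-34a has r of 0.76.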

How the data were processed

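Total RNA of dHC and vHC was made into small RNA libraries with the Nextflex v3 kit. Per the study's methods, the authors removed adapters by cutadapt, merged reads identical in sequence and tag, and assigned them to small RNA annotations in Sports. The deposited table holds expected counts for each annotated RNA, not normalized; 29.5% of them were not whole. The build GRCm38 is from the submitters' processing notes, and a match of tools to steps beyond this is not given in the sources used here. The table had 0 columns without a sample.

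Counts were rounded, and filterByExpr by group, with a minimum count of 10 and a minimum total of 15, kept 463 entries. TMM normalization and edgeR's quasi-likelihood tests (edgeR 4.0.16 in R 4.3.3, sva 3.50.0, DESeq2 1.42.0 as alternative) were used on all 26 libraries, with Benjamini-Hochberg adjustment over the 463. Stress was tested with 2 surrogate variables (null model region) and region with block in their place, since earlier results had shown that a surrogate variable follows region. Shares and log2 ratios (pseudocount 0.5) were compared by exact permutation tests without block or other covariates, and correlations by 1e+05 resamples. Precision is given as SE and 95% confidence intervals. Scripts were tested on simulated counts.

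The members and lists were chosen with earlier results of these data known. Named were the 3 members, their seed relatives, the 3 miRNAs most like each member, and list entries called in a comparison (at most 3 each by smallest p); mir-15a, mir-141 and mir-429 were named after their values were seen. The labels do not say whether libraries of both regions came from the same mouse, so p-values measure the spread between libraries. Figures were drawn with matplotlib 3.10.9.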

Additional observations from a re-analysis of the deposited data

How the results depend on the processing

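No paired analysis was made because the groups share no library number and the labels tie no dHC library to a vHC library of the same mouse. If both regions of a mouse were used, tests that pool the regions count its libraries as independent. The p-values of such tests may then be too small. No other normalization, tool, filter or omitted library gave a called stress difference in any mir-34 entry. Without surrogate variables or block, the stress log2 fold change of mir-34c in dHC was 0.00216, and 67 entries (control) and 56 (swim) were called between regions; with 2 surrogate variables in place of block, 59 were called after swim. That fit reversed mir-34a (-0.0398), mir-34b (-0.22) and mir-34c (-1.66) in control mice and mir-34b (-0.35) and mir-34c (-2.13) after swim; the cause was not tested. The swim region difference of mir-34c passed the threshold at 0.62 (DESeq2 size factors), 0.61 (TMMwsp), 0.62 (whole table as library size), 0.62 (DESeq2) and 0.58 (no filter).

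Within block 1 the stress log2 fold change was -0.63 (mir-34a, vHC) and -0.77 (mir-34b, dHC), the share changed by -0.0131 (vHC) and -0.0359 (dHC) percentage points, the swim region difference of the mir-34b to mir-34c ratio was -0.76, and the control region differences were 0.99 (mir-34b), 1.61 (mir-34c), 1.22 (mir-34b to mir-34a) and 1.85 (mir-34c to mir-34a). Within block 2 the stress values in vHC were 0.22 (mir-34a), 0.32 (mir-34b) and 0.0344 (share), and the swim region difference of the share was -0.000675. Within block 3 the stress values in dHC were 0.36 (mir-34b), 0.59 (mir-34c) and 0.0572 (share). The control region differences there were 0.55 (mir-34a), 0.11 (mir-34b), 0.16 (mir-34c), 0.0233 (share), -0.45 (mir-34b to mir-34a) and -0.39 (mir-34c to mir-34a), and the swim difference of the share was 0.0812.

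With 1 library left out, the vHC stress value was -0.314 to -0.0617 (mir-34a), -0.129 to 0.000599 (mir-34b) and 0.128 to 0.377 (mir-34c), and the dHC one -0.124 to 0.0183 (mir-34a), -0.32 to -0.109 (mir-34b), -0.318 to -0.0654 (mir-34c) and -0.0134 to 0.00664 (share). The swim region difference was 0.44 to 0.61 (mir-34b, called in 20 of 26), 0.45 to 0.67 (mir-34c, called in 14) and -0.307 to 0.0724 (mir-34b to mir-34c ratio). The control ratios were 0.38 to 0.62 (mir-34b to mir-34a) and 0.72 to 1.19 (mir-34c to mir-34a), and both passed without control vHC library 25 (adjusted exact permutation p = 0.0478 and 0.0420). For block 2 against 1, mir-34b was -0.0799 to 0.114 and mir-34c 0.37 to 0.60; for block 3 against 1 mir-34b was -0.0616 to 0.124, and against 2 it was -0.0438 to 0.0788, with 0 to 1 entries called. With DESeq2 size factors, TMMwsp, the whole table and DESeq2, mir-34b in block 2 against 1 was 0.0715, 0.0480, 0.0508 and 0.0717.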
